A study of Mus musculus with 2 samples.

Results

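Cell cycle and DNA replication genes were read from RNA-seq of hepatic stromal cells, the adherent fraction of dissociated livers after a short plating step. The set holds 40 named genes, namely cyclins, cyclin-dependent kinases (CDKs), CDK inhibitors, mitotic genes, replication genes and the transcription factors Foxm1 and E2f1, and was chosen by symbol among the 38279 genes of the deposited tables. All 40 were found in both libraries, none at 0, and 35 averaged an FPKM of 1 or more over the libraries, the filter used for counts and medians over genes. FPKM, the number of fragments scaled to transcript length and library size, is a level per length and can be compared between genes.

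The mice were adult C57/Bl6 males that had received CCl4, a hepatotoxin, for 5 weeks. Foxf1fl/fl littermates carried floxed Foxf1 alleles without Cre. The αSMACreER;Foxf1-/- mice, titled αSMACreER;Foxf1 fl/fl in the labels, carried in addition a tamoxifen-inducible Cre under the αSMA promoter, so that the deletion is limited to cells in which that promoter is active. Tamoxifen was given during the injury period to activate it. Samples were pooled within each genotype into 1 library, so the differences below rest on no replicates and carry no p-value. The study asked by staining of liver sections whether the deletion alters proliferation, also in stellate cells and myofibroblasts, and reported no effect. In whole liver it also measured Foxm1, Ccnb1, Ccnd1 and Aurkb mRNA and FOXM1 and CCND1 protein, and reported them as unchanged. The isolated cells are read here for a related question, at the level of RNA and without replicates. They held markers of several cell types, given below, so the values do not single out stellate cells or myofibroblasts.

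A cell enters the cycle when D-type cyclins with CDK4 or CDK6, and then cyclin E with CDK2, phosphorylate the retinoblastoma protein and free E2F factors, which switch on replication genes such as the MCM helicase subunits. Cyclin A and cyclin B with CDK1 drive the cell to mitosis, and the genes of that phase are transcribed by FOXM1 with B-MYB and the MuvB complex. In a healthy adult liver most cells are out of the cycle, and both hepatocytes and non-parenchymal cells re-enter it after toxic injury.

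Genes of mitosis are known for CHR elements and CCAAT boxes near their starts, and replication genes for E2F sites. Stretches from 7 promoters are printed because they show both kinds side by side. RefSeq promoters on GRCm38.p6, 250 bases before to 50 after a start, were at hand for 31 of the 40 genes, 35 promoters in all. On either strand, the CHR element (TTTGAA or TTCGAA) was present in 8 of 9 promoters of the mitotic genes and in 2 of 11 of the replication genes, against 19.2% of all 32851 promoters. The E2F core (TTGGCGC or TTCCCGC or TTCGCGC or TTGCCGC) was present in 7 of 11 promoters of the replication genes and in 1 of 9 of the mitotic genes, against 9.57% of all promoters. The CCAAT box (CCAAT) was present in 24 of the 35, against 37.4%, and a forkhead word (GTAAACA) in 2, against 3.65%. E2F words can overlap one another and the CCAAT box on the opposite strand. A match is a description of letters only. In the stretches, all upstream of the start and written along the gene's strand, capitals mark these words. Mki67 (chr7:135716434-135716574, minus strand), Top2a (chr11:99024199-99024389, minus), Ccnb2 (chr9:70421564-70421729, minus) and Cdc20 (chr4:118437354-118437403, minus) hold CHR words and CCAAT boxes, and Mki67 also an E2F word. Mcm5 (chr8:75109339-75109499, plus), Mcm6 (chr1:128359710-128359820, minus) and Rrm1 (chr7:102441595-102441660, plus) hold E2F words and CCAAT boxes.
Mki67: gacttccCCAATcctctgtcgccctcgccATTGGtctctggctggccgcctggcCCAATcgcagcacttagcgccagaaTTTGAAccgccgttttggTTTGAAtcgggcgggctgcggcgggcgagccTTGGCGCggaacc
Top2a: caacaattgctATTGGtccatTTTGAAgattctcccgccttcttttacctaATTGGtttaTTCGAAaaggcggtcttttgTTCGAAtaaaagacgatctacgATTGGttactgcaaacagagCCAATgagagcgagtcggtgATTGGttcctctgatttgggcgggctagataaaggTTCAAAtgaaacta
Ccnb2: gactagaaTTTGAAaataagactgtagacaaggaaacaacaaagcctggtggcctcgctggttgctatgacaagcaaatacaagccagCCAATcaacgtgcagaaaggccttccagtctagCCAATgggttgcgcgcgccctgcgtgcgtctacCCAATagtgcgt
Cdc20: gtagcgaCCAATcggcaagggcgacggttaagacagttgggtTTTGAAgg
Mcm5: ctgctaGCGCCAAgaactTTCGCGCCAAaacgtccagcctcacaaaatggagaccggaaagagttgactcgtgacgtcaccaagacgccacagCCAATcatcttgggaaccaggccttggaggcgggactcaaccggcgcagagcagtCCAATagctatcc
Mcm6: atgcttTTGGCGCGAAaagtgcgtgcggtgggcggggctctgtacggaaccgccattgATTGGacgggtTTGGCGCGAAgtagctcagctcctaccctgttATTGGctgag
Rrm1: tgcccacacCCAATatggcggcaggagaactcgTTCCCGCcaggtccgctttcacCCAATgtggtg

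Most of the set differed little between the genotypes. Of the 35 genes past the filter, 4 were 1.5-fold or more higher in αSMACreER;Foxf1-/- cells, against 12.9% of all 12861 genes past it, and 1 was 1.5-fold or more lower, against 13.2%. In either direction 5 lay beyond 1.5-fold, against 26.1% of all genes, and 30 within it. The higher genes were Ccnd2, Cdk6, Ccnb1 and Bub1b, and the lower one was Aurkb. The factor of 1.5 is the one the study used. The median log2 difference of the 35 was 0.13, with 20 genes above 0 and 15 below, against a median of 0.0058 over all genes. Each difference is log2(FPKM + 0.1) in the αSMACreER;Foxf1-/- library, divided first by 1.02, the median ratio between the libraries, minus that in the Foxf1fl/fl library.

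The libraries were estimated at about 9900000 (Foxf1fl/fl) and 11380000 (αSMACreER;Foxf1-/-) mapped reads, from which an approximate 95% counting interval was derived for each gene. These intervals cover counting error in 1 library per genotype and no difference between animals. With reads placed on the longest transcript, 10 of the 35 genes had an interval above 0 and 4 below it, against 30.1% and 28.7% of all genes with an annotated length. With reads placed on a transcript of median length, which gives fewer reads, 5 (Ccnd2, Cdk6, Cdkn1b, Mki67 and Mcm5) and 3 (Cdk4, Cdkn1a and Birc5) did, against 20.9% and 21.8% of all genes. Estimated reads ran from 10 for Cdc25c to 5271 for Cdkn1a in Foxf1fl/fl cells, and 13 of the 40 genes had under 100 there and 14 in αSMACreER;Foxf1-/- cells.

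**Figure D1:**
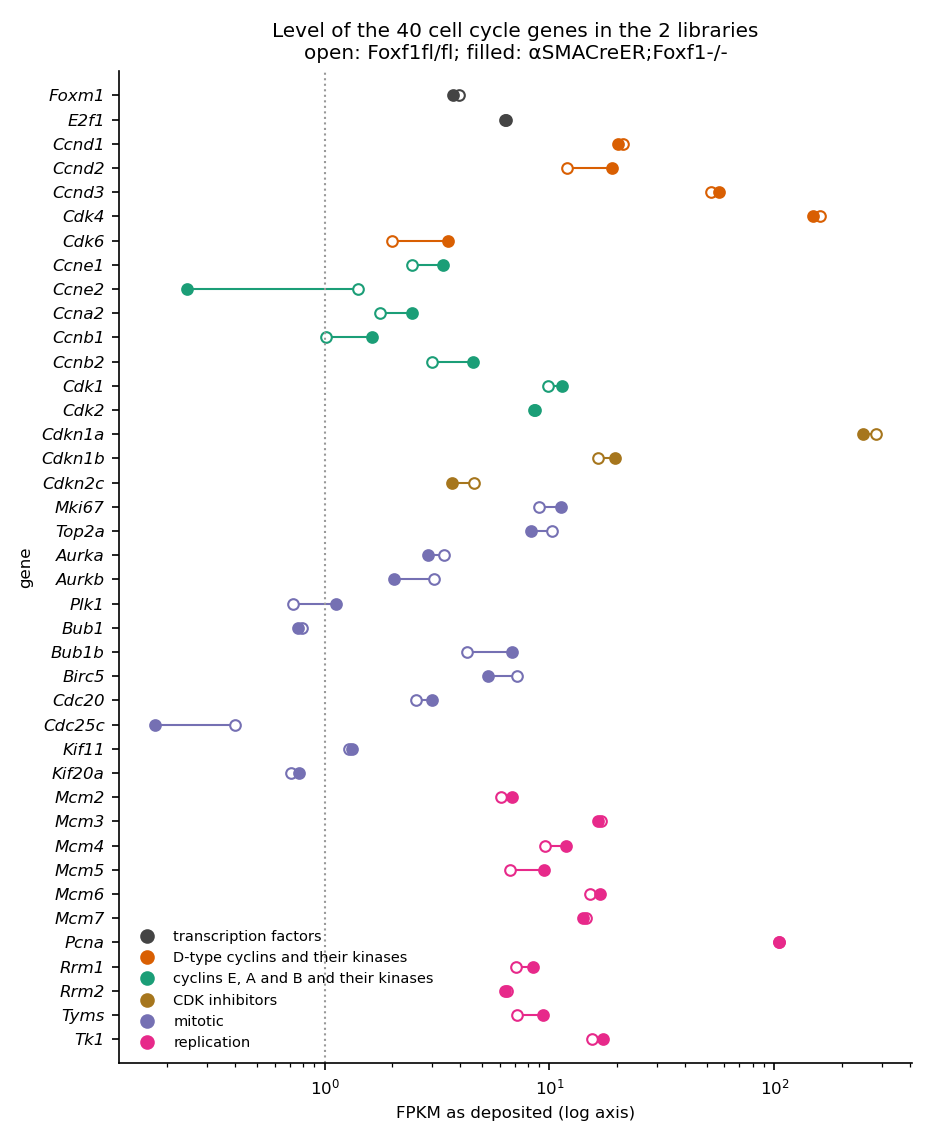
FPKM of each of the 40 genes (log axis) in Foxf1fl/fl (open points) and αSMACreER;Foxf1-/- cells (filled points), coloured by role, with a dotted line at an FPKM of 1. Cdkn1a, Cdk4 and Pcna lie above 100 in both libraries, and the mitotic genes lie between 0.177 and 11.3.

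Foxm1 and E2f1, the factors that drive the mitotic and the replication genes, had nearly the same level in both libraries. Foxm1 had an FPKM of 3.97 in Foxf1fl/fl against 3.73 in αSMACreER;Foxf1-/- cells, a log2 difference of -0.11 (counting interval -0.42 to 0.19). E2f1 had 6.37 and 6.44, a log2 difference of -0.011 (-0.32 to 0.30). Both intervals include no change and lie inside 1.5-fold. For Foxm1 this was lost with reads placed on a transcript of median length, where its interval was -0.83 to 0.64, and its difference was 0.088 when the libraries were scaled to an equal FPKM sum. It was -0.31 after the median of all genes of similar transcript length was subtracted, called below removal of the length trend.

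The D-type cyclins, which link growth signals to entry into the cycle, were unequal in level and in difference. Ccnd3 was the highest, with an FPKM of 52.2 in Foxf1fl/fl against 56.5 in αSMACreER;Foxf1-/- cells. Ccnd1 had 21.2 and 20.3, a log2 difference of -0.089 (-0.23 to 0.056) that was 0.11 with an equal FPKM sum. Ccnd2 had 11.9 and 19.0, a log2 difference of 0.64 (0.52 to 0.78). The share of Ccnd2 in the summed FPKM of the D-type cyclins was thus 13.97% in Foxf1fl/fl against 19.8% in αSMACreER;Foxf1-/- cells, while that of Ccnd1 was 24.8% and 21.2%.

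Of their kinase partners, the scarcer one was past 1.5-fold. Cdk4 had an FPKM of 159 in Foxf1fl/fl against 149 in αSMACreER;Foxf1-/- cells, a log2 difference of -0.12 (-0.19 to -0.046) that was 0.085 with an equal FPKM sum and 0.094 after removal of the length trend. Its locus overlaps Tspan31 on the opposite strand, which had 57.4 and 45.9. Cdk6 had 1.99 and 3.55, a log2 difference of 0.78 (0.57 to 1.04), the highest of the 35 genes. The ratio of Cdk4 to Cdk6 FPKM was 79.8 in Foxf1fl/fl against 42.0 in αSMACreER;Foxf1-/- cells. Cdk6 and Ccnd2 have long annotated transcripts, of 11525 and 6330 bases, and after removal of the length trend their log2 differences were 0.28 and 0.31, within 1.5-fold.

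Of the later cyclins, which were low, Ccnb1 alone was past 1.5-fold among those past the filter. Ccnb1, which encodes the regulatory subunit that activates CDK1 at mitosis, had an FPKM of 1.01 in Foxf1fl/fl against 1.62 in αSMACreER;Foxf1-/- cells, from about 23 and 42 reads, a log2 difference of 0.61 (-0.12 to 1.44). Ccnb2 had 2.997 and 4.56, a log2 difference of 0.56 (-0.022 to 1.16), just within 1.5-fold. It was past 1.5-fold with the values as deposited (0.59) and after removal of the length trend (0.87). Ccnb1 was within 1.5-fold, at 0.37, with 1 instead of 0.1 added to the FPKM. Ccna2, the cyclin of S and G2 phase, had 1.76 and 2.45, a log2 difference of 0.43 (-0.083 to 1.01). Its locus overlaps Exosc9 on the opposite strand, which had 10.9 and 10.1. Ccne1, a partner of CDK2 at the start of S phase, had 2.45 and 3.38, a log2 difference of 0.43 (-0.14 to 1.002). The counting interval of each of these 4 cyclins included no change. Over the 6 genes of this role past the filter, these cyclins with Cdk1 and Cdk2, the median log2 difference was 0.43. Of these 6, 5 were above 0 and 1 below, and the median was 0.54 after removal of the length trend.

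Ccne2, the other cyclin E gene, was lower in αSMACreER;Foxf1-/- cells but below the filter. Its FPKM was 1.40 in Foxf1fl/fl against 0.245 in αSMACreER;Foxf1-/- cells, from about 39 and 8 reads, a log2 difference of -2.14 (-3.82 to -1.39). With reads placed on a transcript of median length the interval reached from -8.11 to 0.61. Its locus overlaps Ints8 on the opposite strand, which had 10.8 and 8.43, and the counting is not stated to use strand. The kinases themselves were close between libraries. Cdk1 had 9.82 and 11.3, a log2 difference of 0.18, and Cdk2 had 8.52 and 8.63, a log2 difference of -0.0070 that was 0.20 with an equal FPKM sum.

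Among the CDK inhibitors, Cdkn1a, the p53 target p21 that blocks CDK2, had the highest level of the whole set. Its FPKM was 283 in Foxf1fl/fl against 248 in αSMACreER;Foxf1-/- cells, above 96.9% and 97.0% of the genes past the filter, and its log2 difference was -0.22 (-0.27 to -0.16). Cdkn1b, which encodes p27, a brake of resting cells, had 16.4 and 19.5, a log2 difference of 0.22 (0.080 to 0.36). Cdkn2c, an inhibitor of CDK4 and CDK6, had 4.597 and 3.70, a log2 difference of -0.33 (-0.74 to 0.087). The difference of Cdkn1a exceeded counting error, but it was -0.011 with an equal FPKM sum and -0.0017 after removal of the length trend. That of Cdkn1b was 0.42 with an equal FPKM sum and 0.022 after removal of the length trend.

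**Figure D2:**
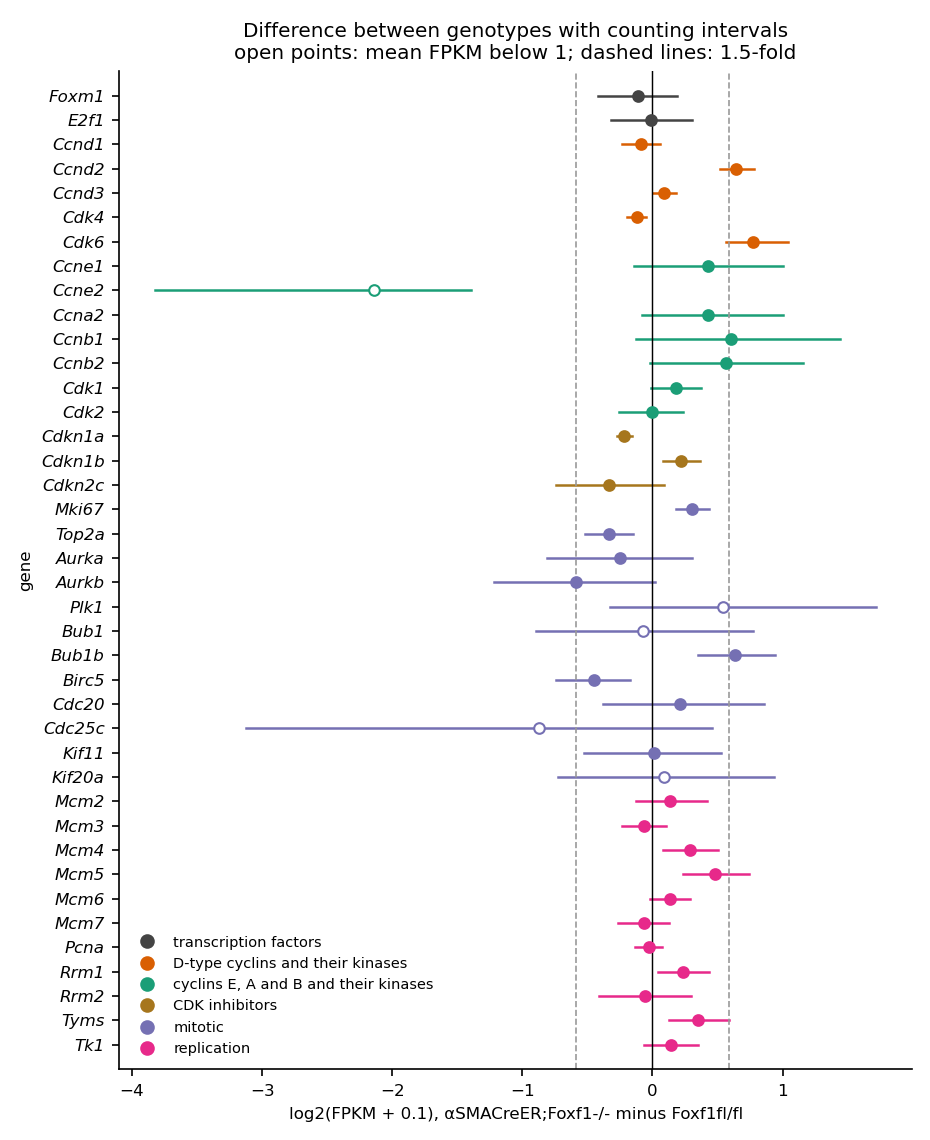
Log2 difference in FPKM, αSMACreER;Foxf1-/- minus Foxf1fl/fl, for each of the 40 genes with its approximate 95% counting interval (bars). Open points are the 5 genes with a mean FPKM below 1 and dashed lines mark 1.5-fold. Ccnd2, Cdk6, Ccnb1 and Bub1b lie beyond the upper line, with the interval of Ccnb1 crossing 0, and the replication genes lie between -0.068 and 0.48.

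The 12 mitotic genes lay on both sides of 0. The 8 that passed the filter had a median log2 difference of -0.12, with 4 above 0 and 4 below, and that median was 0.075 with an equal FPKM sum. Mki67, which encodes the Ki-67 antigen of cycling cells, had an FPKM of 8.95 in Foxf1fl/fl against 11.3 in αSMACreER;Foxf1-/- cells, a log2 difference of 0.31 (0.18 to 0.44). Top2a, the topoisomerase that untangles chromosomes, had 10.3 and 8.29, a log2 difference of -0.33 (-0.52 to -0.15). These markers of cycling cells were thus on opposite sides of 0, each beyond counting error on the longest transcript, though on a transcript of median length the interval of Top2a was -0.87 to 0.22. With the length trend removed both were below 0, at -0.18 and -0.58.

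Of the spindle checkpoint kinases, Bub1b, which encodes BUBR1, had an FPKM of 4.29 in Foxf1fl/fl against 6.81 in αSMACreER;Foxf1-/- cells, a log2 difference of 0.63 (0.35 to 0.95). With reads placed on a transcript of median length its interval was -0.27 to 1.52. After removal of the length trend its log2 difference was 0.54, within 1.5-fold. Bub1 had 0.791 and 0.759. Cdc20, the activator of the anaphase-promoting complex that the checkpoint restrains, had 2.55 and 3.02, a log2 difference of 0.21 (-0.38 to 0.86). Its locus overlaps Elovl1 on the opposite strand, which had 67.8 and 71.1.

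Aurkb and Birc5 encode the kinase and the survivin subunit of the chromosomal passenger complex, which corrects chromosome attachment. Both were lower in αSMACreER;Foxf1-/- cells, but the other subunits read here were not. Aurkb had an FPKM of 3.06 in Foxf1fl/fl against 2.03 in αSMACreER;Foxf1-/- cells, from about 53 and 41 reads, a log2 difference of -0.59 (-1.22 to 0.019). Birc5 had 7.18 and 5.33, a log2 difference of -0.45 (-0.74 to -0.17). Cdca8 and Incenp, which encode further subunits, had 3.27 and 5.21 in Foxf1fl/fl and 4.43 and 5.74 in αSMACreER;Foxf1-/- cells. Their log2 differences were 0.40 (0.046 to 0.79) and 0.11 (-0.19 to 0.41). Aurka, the centrosomal relative of Aurkb, had 3.40 and 2.89, a log2 difference of -0.25 (-0.81 to 0.31). Aurkb passed 1.5-fold by a narrow margin and no longer did so with the values as deposited, at -0.57. It was -0.40 with an equal FPKM sum and -0.38 after removal of the length trend. On a transcript of median length its interval was -1.78 to 0.51.

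The remaining mitotic genes were near the floor of what this depth can compare. Kif11, a spindle motor, had an FPKM of 1.28 in Foxf1fl/fl against 1.32 in αSMACreER;Foxf1-/- cells. Plk1, the polo-like kinase of mitotic entry, had 0.727 and 1.12, Kif20a, a motor of cytokinesis, had 0.708 and 0.771, and Cdc25c, the phosphatase that activates CDK1, had 0.401 and 0.177. Each of these 3 rests on at most 30 estimated reads in either library, and their counting intervals include no change. The locus of Kif20a overlaps Cdc23 on the opposite strand, which had 2.92 and 3.48.

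The 11 replication genes were close between the libraries. All passed the filter and lay within 1.5-fold, except that Mcm5 was past it at an equal FPKM sum (0.68) and after scaling to equal upper quartiles (0.61), with a median log2 difference of 0.14, a lowest of -0.068 and a highest of 0.48. Pcna, the sliding clamp of DNA polymerases, had an FPKM of 105 in both libraries, with a log2 difference of -0.031 (-0.14 to 0.075) that was 0.17 with an equal FPKM sum and 0.27 after removal of the length trend. Mcm5 had the highest difference of the 11, with 6.65 in Foxf1fl/fl against 9.48 in αSMACreER;Foxf1-/- cells, a log2 difference of 0.48 (0.24 to 0.74).

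MCM2 to MCM7 form a hexameric helicase with 1 copy of each, and their transcripts were within a few fold of one another. In Foxf1fl/fl cells the FPKM ran from 6.10 for Mcm2 to 16.9 for Mcm3, a coefficient of variation of 40.5% over the 6 genes. In αSMACreER;Foxf1-/- cells it ran from 6.85 for Mcm2 to 16.9 for Mcm6, a coefficient of variation of 31.5%. Mcm4 had 9.52 and 11.9, Mcm6 had 15.1 and 16.9, Mcm3 had 16.9 and 16.5 and Mcm7 had 14.6 and 14.1. The summed FPKM of the 6 was 68.9 in Foxf1fl/fl against 75.6 in αSMACreER;Foxf1-/- cells. Mcm7 overlaps Cops6 on the opposite strand, which had 48.3 and 43.3.

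The enzymes that supply deoxynucleotides were also close. Rrm1 and Rrm2, the subunits of ribonucleotide reductase, had 7.08 and 6.48 in Foxf1fl/fl and 8.49 and 6.33 in αSMACreER;Foxf1-/- cells. Tyms, thymidylate synthase, had 7.21 and 9.39, a log2 difference of 0.35 (0.13 to 0.59). Tk1, thymidine kinase, had 15.4 and 17.3, a log2 difference of 0.14 (-0.065 to 0.35). Its locus overlaps Afmid on the opposite strand, which had 7.89 and 5.26.

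Read back against the promoter words, genes with either element lay on both sides of 0. The 10 genes past the filter with a CHR word had log2 differences from -0.33 for Top2a to 0.63 for Bub1b, with a median of 0.16, and the 19 without one had a median of 0.090. The 11 with an E2F word ran from -0.33 for Cdkn2c to 0.61 for Ccnb1, with a median of 0.13, and the 18 without one had a median of 0.11. After removal of the length trend the order of the medians was the opposite, at -0.024 with and 0.050 without a CHR word and at -0.014 with and 0.0996 without an E2F word. Top2a and Ccnb2, whose stretches above hold the same kinds of words, were on opposite sides of 0. The counting interval of Ccnb2 included no change (-0.022 to 1.16), as did that of Top2a on a transcript of median length (-0.87 to 0.22).

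Across all 12701 genes past the filter with an annotated length the difference went up with transcript length, from a median of -0.37 in the shortest of 20 length bins to 0.49 in the longest. The 35 genes have longest transcripts of 1518 to 11525 bases. Their 17 shorter ones had a median log2 difference of -0.031 and their 18 longer ones of 0.20. After the median of each bin was subtracted, the median of the 35 was 0.022, with 18 above their bin and 17 below. Ccne1, Ccnb1 and Ccnb2 were then 1.5-fold or more higher, at 0.64, 0.70 and 0.87, against 10.0% of all genes, and 0 of the 35 were 1.5-fold lower, against 11.2%.

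**Figure D3:**
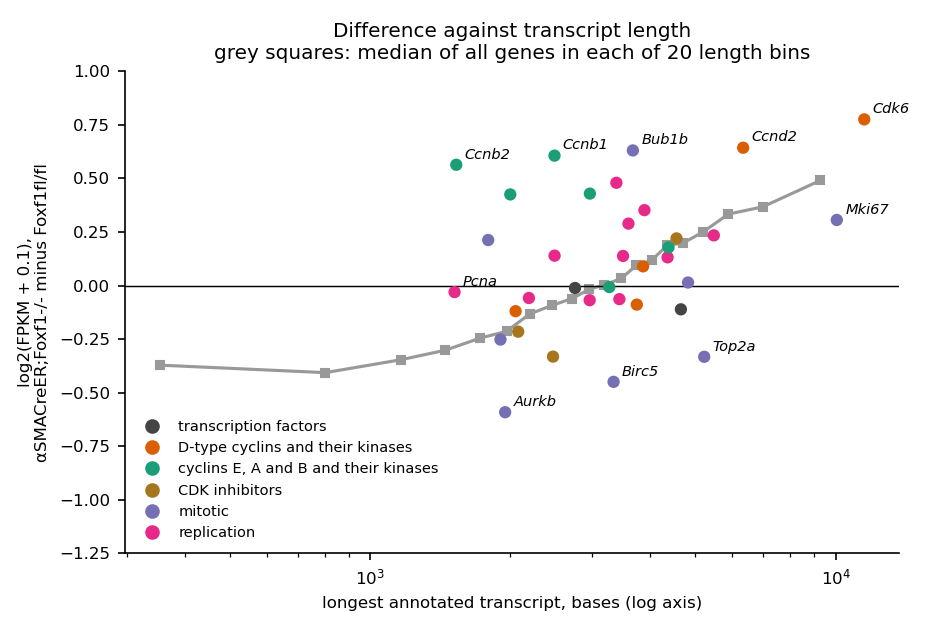
Log2 difference against the longest annotated transcript (log axis) for the 35 genes past the filter, coloured by role, with the median of all genes in each of 20 length bins as grey squares. Cdk6 and Ccnd2 lie at the long end, where the grey line is also highest, and Ccnb1 and Ccnb2 lie well above the line.

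Wider lists of the same pathway were read in the same way. Of 128 further genes, 126 were in the tables and 106 passed the filter, of which 12 were 1.5-fold or more higher and 10 lower, against the 12.9% and 13.2% of all genes above, with a median log2 difference of 0.061. After removal of the length trend 12 were higher and 4 lower, against 10.0% and 11.2% of all genes. The same shares of all genes apply to the counts of each single list below. Among 38 genes of the pre-replication complex and the fork, 4 were higher and 2 lower. Orc4 had an FPKM of 5.79 in Foxf1fl/fl against 12.5 in αSMACreER;Foxf1-/- cells, Orc3 had 5.82 and 10.4 (both are subunits of the origin recognition complex), and Prim2, a primase subunit, had 2.49 and 4.16. Gins1, a subunit of the replicative helicase, had 3.47 and 1.29 and Rpa3, a single-strand binding protein, had 7.20 and 4.77. The interval of Rpa3 included no change (-1.41 to 0.17), and its log2 difference was -0.20 after removal of the length trend.

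Among 31 spindle and kinetochore genes, 4 were higher and 4 lower, or 5 and 1 after removal of the length trend. Ect2, which acts in cytokinesis, had 0.457 in Foxf1fl/fl against 2.32 in αSMACreER;Foxf1-/- cells, a log2 difference of 2.10 (1.56 to 3.10). Ndc80, a kinetochore protein, had 0.643 and 1.70, and like Ect2 it was below 1 in Foxf1fl/fl cells and passed the filter through the other library. Prc1, which bundles midzone microtubules, had 3.52 and 6.71. Ncapg, a condensin subunit, had 1.75 and 0.983, Cenpm, a centromere protein, had 1.82 and 1.05, and Cks2, a CDK-binding protein, had 41.0 and 26.6. Ncapg was below 1 in αSMACreER;Foxf1-/- cells and passed the filter through the Foxf1fl/fl library. The interval of Cenpm included no change (-2.00 to 0.32), and after removal of the length trend Cenpm and Cks2 were within 1.5-fold, at -0.42 and -0.24.

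Among 18 genes of the RB-E2F and MuvB network, 3 were higher and 1 lower. E2f8 and E2f7, the atypical E2F repressors that are themselves E2F targets, had 0.851 and 0.683 in Foxf1fl/fl and 2.62 and 1.44 in αSMACreER;Foxf1-/- cells, log2 differences of 1.49 (1.01 to 2.26) and 0.95 (0.45 to 1.63). Both were below 1 in Foxf1fl/fl cells and passed the filter through the other library. Rbl1, the pocket protein p107, had 1.18 and 1.86, and its log2 difference of 0.59 was 0.39 after removal of the length trend. Mybl2, which encodes B-MYB, had 1.81 and 1.17.

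Among 19 other inhibitors and checkpoint genes, 1 was higher and 3 lower. Cdkn2a, which encodes p16 and ARF, had 6.75 in Foxf1fl/fl against 3.07 in αSMACreER;Foxf1-/- cells, a log2 difference of -1.13 (-1.97 to -0.46). Cdkn2b and Cdkn2d, which encode inhibitors of CDK4 and CDK6, had 5.45 and 21.2 in Foxf1fl/fl and 3.44 and 13.6 in αSMACreER;Foxf1-/- cells. With the length trend removed, Cdkn2b and Cdkn2d were at -0.37 and -0.36 and no longer past 1.5-fold, and Cdkn2a was at -0.73. Cdc25b, a phosphatase that activates CDKs, had 2.41 and 3.96.

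**Figure D4:**
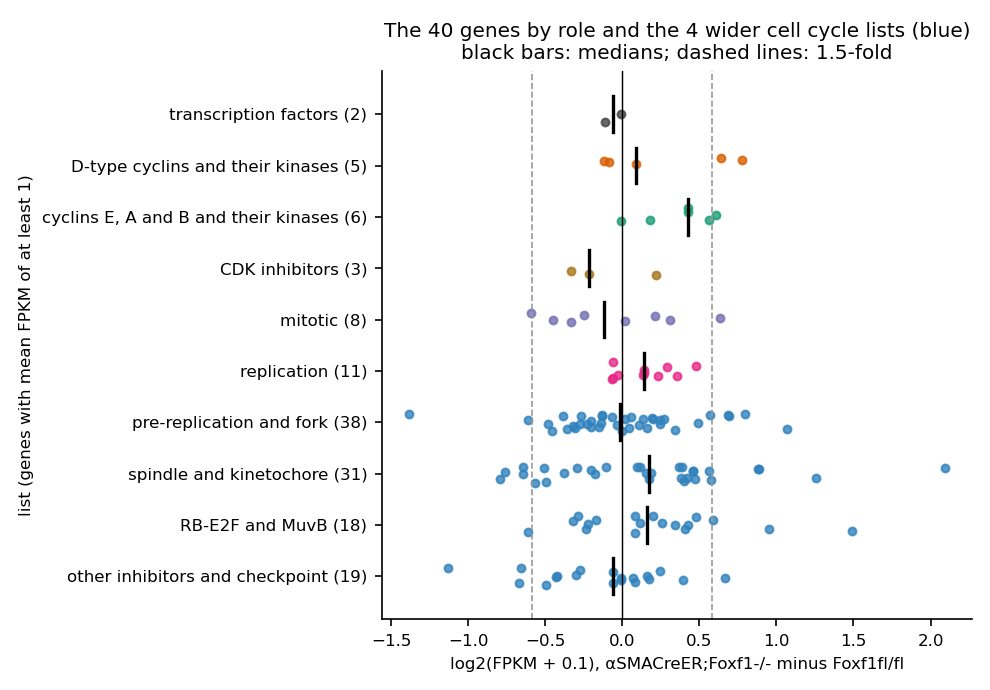
Log2 difference of each gene past the filter in the 6 roles of the set and in the 4 wider lists (blue), with the median of each list as a black bar and 1.5-fold as dashed lines. The 11 replication genes stay inside the dashed lines, and the wider lists have medians between -0.059 and 0.17.

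The cells that carry these transcripts were not resolved, and the population labelled stromal held markers of several cell types. With Foxf1fl/fl given first, 8 macrophage markers summed to an FPKM of 5132 and 4217 (1 of 8 lower by 1.5-fold). The 8 endothelial markers summed to 836 and 839. The 8 stellate cell and myofibroblast markers summed to 202 and 282 (1 of the 6 past the filter higher). Most of that sum was Col1a1 (70.2 and 102.8) and Col3a1 (114.9 and 164.4). Of the others, Des (1.70 and 3.29), Pdgfrb (1.03 and 1.43) and Lrat (0.078 and 0.11) were higher in αSMACreER;Foxf1-/- cells. Acta2, which encodes αSMA (7.77 and 5.65), Tagln (5.51 and 4.31) and Reln (0.68 and 0.31) were lower there. All 8 hepatocyte markers and all 8 neutrophil markers were 1.5-fold or more lower in αSMACreER;Foxf1-/- cells, with sums of 3144 and 1189 and of 2289 and 911, and Ly6g was listed at 0 there. The 8 lymphocyte markers summed to 181 and 163, with 6 of 8 above 0 in log2 difference, Trac (47.0 and 73.9) higher and Jchain (78.8 and 26.02) lower by 1.5-fold. Of the erythroid markers, Hba-a1 had 43.0 and 37.5 and Hbb-bt 10.7 and 9.10, and Hemgn was listed at 0 in both libraries. The part of these differences in the values of the cell cycle genes was not tested, and fewer cells of a type and less RNA per cell cannot be told apart in pooled RNA.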

How the data were processed

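Adherent liver cells were pooled into 1 library for each genotype. Reads were aligned with TopHat to mm10 per the labels, and the authors deposited an FPKM from Cufflinks for each of 38320 gene entries, with no scaling between libraries stated. The study's own gene selection used DESeq on a separate count of the reads, which was not used here. IDs were matched to GENCODE M21 (95.4% of entries), keeping for each symbol its most abundant entry and leaving out entries with a failed status. Promoter coordinates are those of RefSeq on GRCm38.p6. The libraries were scaled by the median ratio over 12011 genes at an FPKM of 1 or more in each, and log2 was taken after adding 0.1, which understates the change of low genes. FPKM values are not counts, so no count model was fitted.

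Depth was inferred from the steps between low FPKM values, taking fragments to be 200 bases long. Since 50.1% and 49.9% of these values came within 0.1 of a whole read, read numbers are rough. Counting intervals are conditional exact binomial (Clopper-Pearson) intervals at 95% on these reads and cover counting error only. Placing reads on a transcript of median length was added after seeing the data. The length trend is the median difference in each of 20 bins of longest transcript. Other pseudocounts, scalings, filters and fold thresholds were tried.

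The genes and lists were chosen with earlier results of these data known. All 40 genes are given values. From each wider list up to 3 genes with the highest and up to 3 with the lowest difference past 1.5-fold are named. Cdca8 and Incenp are named besides, as subunits of the chromosomal passenger complex. Foxf1 itself was not analysed here. The functions were tested on simulated data. Versions were Python 3.11.15 with matplotlib 3.10.9, scipy 1.17.1, pandas 2.3.3 and numpy 2.4.6.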

Additional observations from a re-analysis of the deposited data

How the results depend on the processing

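No paired analysis was possible because only 1 library was made per genotype, which also leaves no library to omit. Against 4 genes higher and 1 lower by 1.5-fold, a pseudocount of 1 gave 1 and 0, an equal FPKM sum gave 8 and 0, a filter at a mean FPKM of 5 gave 2 and 0 and a 2-fold threshold gave 0 and 0. The shares of all genes were 8.71% and 10.7% with the pseudocount of 1, 21.9% and 8.72% at an equal FPKM sum, 8.09% and 11.1% with the filter at 5 and 4.52% and 6.22% at 2-fold. On the deposited values without scaling 5 were higher and 0 lower, against 13.8% and 12.5% of all genes. Upper-quartile scaling gave 6 and 0, against 18.2% and 9.96%, and removal of the length trend 3 and 0, against 10.0% and 11.2%. Requiring the counting interval to exclude no change gave 3 and 0, against 10.9% and 10.9%. Without a filter 4 were higher and 3 lower, adding Ccne2 and Cdc25c to the lower ones, against 10.4% and 8.63%.

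The median log2 difference of the set, 0.13, became 0.33 at an equal FPKM sum and 0.26 after upper-quartile scaling, settings that put the median of all genes at 0.21 and 0.13. Over all genes, 2820 were then higher and 1121 lower at an equal FPKM sum, and 2338 and 1281 after upper-quartile scaling, against 1662 and 1697. The median of the set was 0.088 without a filter and 0.022 after the length trend was removed. The median of the replication genes, 0.14, became 0.34 at an equal FPKM sum and 0.27 after upper-quartile scaling. The median of the mitotic genes, -0.12, became 0.075 and 0.0050 under these scalings, -0.031 without a filter and -0.013 with a filter at 5. The shifts under scaling follow from its construction, and the cause of the length trend was not tested. Of the 40 genes, 10 had the opposite sign at an equal FPKM sum, 10 after upper-quartile scaling, 11 after the length trend was removed and 2 without scaling, and 0 with other pseudocounts or summed entries.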
